A study of Populus ussuriensis with 18 samples.

Results

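The first step of the course, from the moment of cutting to 0.5 h later, was followed locus by locus in the stem base of Populus ussuriensis, a poplar. The 2 libraries taken 0.5 h after cutting were compared with the 2 taken at 0 h. Transcript levels were added up per locus, and loci above 0 in both 0 h libraries were kept. They were 23994 of the 26765 loci tested, among 36385 loci in the tables, and the 4 libraries belong to a course of 18 libraries at 9 time points up to 96 h. In vitro plants 2 weeks old had been grown at 25 °C in 16 h light and 8 h dark on medium with 20 g/L sucrose. The labels name no transgene, mutation or added hormone in any group, and all groups share species, age, medium and light. Total RNA came from the basal 0.5 cm of the cuttings, and by the labels the 2 groups differ in the time since cutting alone. Uncut plants at 0.5 h were not analysed here, so the cut, the handling and the time of day cannot be told apart. Whether the libraries of a group come from separate plants is not stated, so a p-value here covers the spread between libraries, possibly a technical one. That spread was pooled over all 9 time points, so it rests mostly on libraries other than the 4 compared. In bulk tissue, fewer cells of a type and less RNA per cell cannot be told apart.

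Cutting a plant stem breaks cells and the vascular strands that run through it. Damaged plant tissue is known to respond within minutes with calcium and electrical signals, with synthesis of jasmonate, and with a fast, often short-lived rise of transcripts for transcription factors, kinases and defence proteins. In stem cuttings of poplar this early response precedes the founding of adventitious roots, which form at the basal end from tissue other than root. The identifiers in the tables are not paired with gene names, so no role is given to any locus below, and the tissue label could not be set against marker genes.

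Levels are in FPKM, that is, reads corrected for the length of the transcript and the size of the library, so that loci can be compared with each other. Folds and tests were made on log2(FPKM + 1), a scale that understates the change of loci with low levels. The read totals behind the values, recovered from the steps between low FPKM values, were 21914572 and 25026198 at 0 h, 30311720 and 29167652 at 0.5 h, and between 28460172 and 30651830 in the 16 libraries after 0 h. The steps first gave 15155860 for replicate 1 of 0.5 h, at which 94.4% of the lengths found were even. The totals of all libraries were then multiplied by 2, so the 0 h totals took this factor from the later tables. In replicate 1 of 0.5 h a single read on a transcript of 2 kb is worth 0.0165 FPKM.

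The 0 h tables were made in another way than the later ones, and this touches every comparison with 0 h. Lengths were taken as the values at which all 16 later tables give whole reads within 0.01 of a read. The whole reads of the later tables are therefore set by that search, in which the 0 h tables took no part. Such a length was found for all 60197 transcripts above 0 in at least 6 later libraries. At these lengths the 0 h tables gave whole reads for 38.7% and 37.9% of values. Where a locus lists 1 transcript the shares were 83.5% and 83.2%, and where it lists several they were 15.7% and 14.9%. Among whole values, even read numbers made up 97.9% in both 0 h tables and 52.4% to 54.1% in the later ones. Counted in this unit, whose size was set with the later tables, the 0 h values step in pairs of reads. Time and this difference between tables cannot be told apart. How the changes went with transcript number and length is given after the single loci.

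At 0.5 h, 5363 loci were higher than at 0 h and 6333 were lower, and 12298 were not called in either direction (limma, Benjamini-Hochberg adjusted p below 0.05, two-sided). These calls made up 22.4% and 26.4% of the 23994 loci, which is the background for every count of called loci below. Rises were larger than falls. At least 2-fold changes were seen in 2463 higher and 1196 lower loci, at least 4-fold changes in 858 and 132, and at least 16-fold changes in 117 and 3. The median log2 fold change was 0.93 among the higher loci and -0.61 among the lower. Summed over the higher loci, the level went from 73210 FPKM to 187515, and summed over the lower loci from 238794 to 143348. All 23994 loci together held 543886 FPKM at 0 h and 551737 at 0.5 h. Both 0.5 h libraries lay above both 0 h libraries for 7522 loci and below them for 9795.

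Of the called loci, 45.9% were higher. Quantile normalization lowered that share to 32.1%, with 4225 higher and 8937 lower loci, and moved the median of all loci from -0.08 to -0.22 on the log2 scale. Other settings turned the direction. Higher loci made up 53.9% of calls relative to the median of loci of like length (5794 against 4956). They were 51.1% with only the 4 libraries fitted (4169 against 3995). Among loci changed at least 2-fold they were 67.3%. With loci at 0 at 0 h included the share was 52.4% (6961 against 6333). A locus at 0 in both 0 h libraries cannot fall, so that setting does not bear on the direction. Which direction was more frequent is therefore not settled by these tables. Every change named below is larger than that shift of the median.

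The 10 loci with the largest rise stood between 0.102 and 9.01 FPKM in the 0 h libraries and between 101 and 599 FPKM at 0.5 h. Potri.003G208900 read 0.393 and 0.689 FPKM at 0 h and 322 and 308 FPKM at 0.5 h, a log2 fold change of 7.69 (SE 0.15, limma adjusted p = 3.35e-14). With only the 4 libraries fitted, its limma adjusted p was 5.96e-05. Potri.001G295900 had 3.08 and 1.31 FPKM at 0 h and 359 and 599 FPKM at 0.5 h, a log2 fold change of 7.24 (SE 0.24, limma adjusted p = 1.08e-11). In both, the groups lay more than 100-fold apart, and the libraries of 1 group differed by less than 2.5-fold. Groups without overlap were a condition for naming a locus. The leading transcripts are short, 696 bp and 306 bp, and each locus has 1 listed transcript. The 0 h value of Potri.001G295900 in replicate 1 was not a whole number of reads.

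Potri.004G024700, with 1 transcript of 606 bp, stood at 0.151 and 0.132 FPKM at 0 h, which is 2 reads in each library, and at 177 and 145 FPKM at 0.5 h. Its log2 fold change was 7.14 (SE 0.11, limma adjusted p = 3.07e-15). Counted in read pairs scaled to equal depth, the ratio was 1149, with a 95% exact interval from 318 to 9493 that covers counting error only. Potri.016G019200, with 1 transcript of 414 bp, likewise rested on 2 reads in each 0 h library, 0.220 and 0.193 FPKM, and reached 115 and 123 FPKM. Here the ratio in pairs was 580 (160 to 4794) and the log2 fold change 6.64 (SE 0.16, limma adjusted p = 2.2e-13). Both loci were close to the lowest level the 0 h tables can show, so the size of these rises is poorly known. The intervals leave out the difference between the tables and the rise of short loci described below.

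Potri.002G108600 rose from 0.389 and 1.26 FPKM to 246 and 247 FPKM (log2 fold change 7.13, SE 0.15, limma adjusted p = 8.12e-14). It is the only one of the 10 with more than 2 listed transcripts, 9 in all, with a leading one of 1641 bp. Potri.012G028100, of 561 bp, went from 1.14 and 0.285 FPKM to 199 and 207 FPKM (6.94, SE 0.17, limma adjusted p = 2.9e-13). Potri.005G139000, of 887 bp, went from 0.412 and 0.451 FPKM to 109 and 101 FPKM (6.20, SE 0.14, limma adjusted p = 9.02e-14). In these 3 loci the 0.5 h libraries differed by less than 10% of their level.

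In 3 of the 10, the 0 h libraries were more than 6-fold apart. Potri.013G129800, with 1 transcript of 896 bp, stood at 0.102 FPKM in replicate 1 and at 9.01 FPKM in replicate 2 of 0 h, and at 359 and 382 FPKM at 0.5 h (6.80, SE 0.69, limma adjusted p = 5.30e-06). With only the 4 libraries fitted, its SE was 1.00 and its limma adjusted p 0.0070. Without replicate 1 of 0 h the log2 fold change was 5.21, and without replicate 2 it was 8.40. Potri.016G134100, with 1 transcript of 342 bp, stood at 0.267 and 2.34 FPKM at 0 h and at 191 and 152 FPKM at 0.5 h (6.38, SE 0.39, limma adjusted p = 2.74e-08), with 5.68 without replicate 1 and 7.08 without replicate 2. Potri.002G222700, with 2 transcripts and a leading one of 1715 bp, stood at 1.12 and 7.46 FPKM at 0 h and at 348 and 297 FPKM at 0.5 h (6.25, SE 0.42, limma adjusted p = 1.34e-07), with 5.25 and 7.25 in the same order. The rise of each of the 3 was still called with either 0 h library left out, and its size depended on which one was used.

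Loci with short transcripts rose on the whole, as described below. Relative to the median of loci of like length, the log2 fold change was 5.92 for Potri.001G295900, 6.30 for Potri.012G028100, 5.92 for Potri.016G019200 and 5.05 for Potri.016G134100. For the other 6 of the 10 loci this correction moved the fold by less than 1.5 times.

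**Figure D1:**
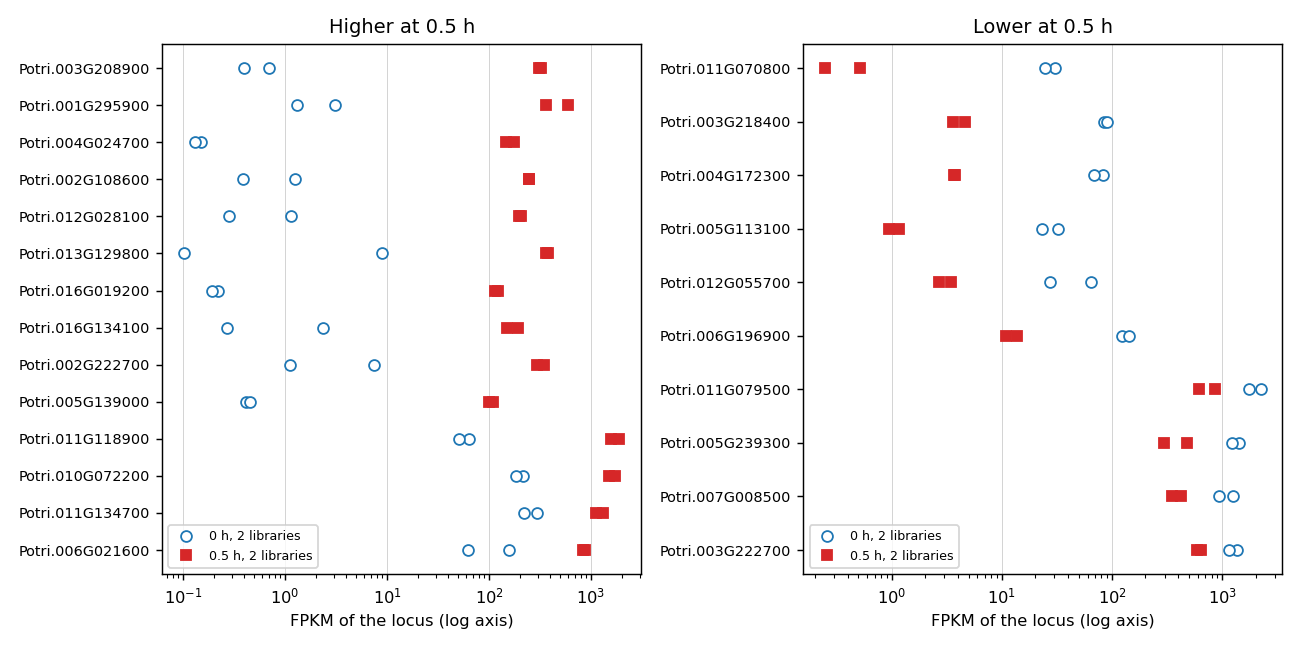
Level in FPKM (log axis) of the 14 loci named as higher and the 10 named as lower at 0.5 h, with 1 point per library: open circles for the 2 libraries of 0 h and filled squares for the 2 libraries of 0.5 h. In every row the 2 groups are apart, as the rule for naming loci required, and the widest spread between 0 h libraries is that of Potri.013G129800, at 0.102 and 9.01 FPKM.

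The later libraries divided these 10 loci by how long the 0.5 h level lasted. The same 3 loci whose 0 h libraries were furthest apart fell to under 10% of their 0.5 h mean by 96 h. Potri.013G129800 reached 753 and 751 FPKM at 1 h, and after 365 and 415 FPKM at 2 h it dropped to 23.3 and 19.1 by 6 h and ended at 0.510 and 0.665 FPKM. Potri.002G222700 reached 944 and 1033 FPKM at 1 h, was at 23.3 and 20.9 at 6 h and ended at 8.23 and 6.30 FPKM. Its further rise from 0.5 h to 1 h was called (log2 fold change 1.62, limma adjusted p = 0.00835), while that of Potri.013G129800 was not (1.02, limma adjusted p = 0.258). Potri.016G134100 was highest at 0.5 h, at 132 and 151 FPKM at 1 h, and ended at 1.14 and 1.74 FPKM. In all 3 the peak came within the first 2 h, and by 6 h the level was at most 23.3 FPKM.

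The other 7 kept at least 10% of their 0.5 h mean to the end. Potri.001G295900 stayed between 374 and 641 FPKM in all 16 libraries after 0 h except the first, at 359 FPKM. Potri.002G108600 stayed between 224 and 312 FPKM. Potri.003G208900 declined to 116 and 90.8 FPKM at 96 h, Potri.004G024700 to 75.3 and 81.6, and Potri.012G028100 to 118.5 and 119.4. Potri.016G019200 ended at 26.2 and 16.7 FPKM and Potri.005G139000 at 35.8 and 30.5. So the low level of these 7 loci was seen in the 0 h tables and in none of the later ones. Leading transcripts of 6 of the 7 were shorter than 1000 bp, and the seventh, Potri.002G108600, has several transcripts. The loci that fell met the same description: Potri.013G129800 has 896 bp, Potri.016G134100 has 342 bp and Potri.002G222700 lists 2 transcripts. These traits therefore do not mark the lasting loci off from those that fell.

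**Figure D2:**
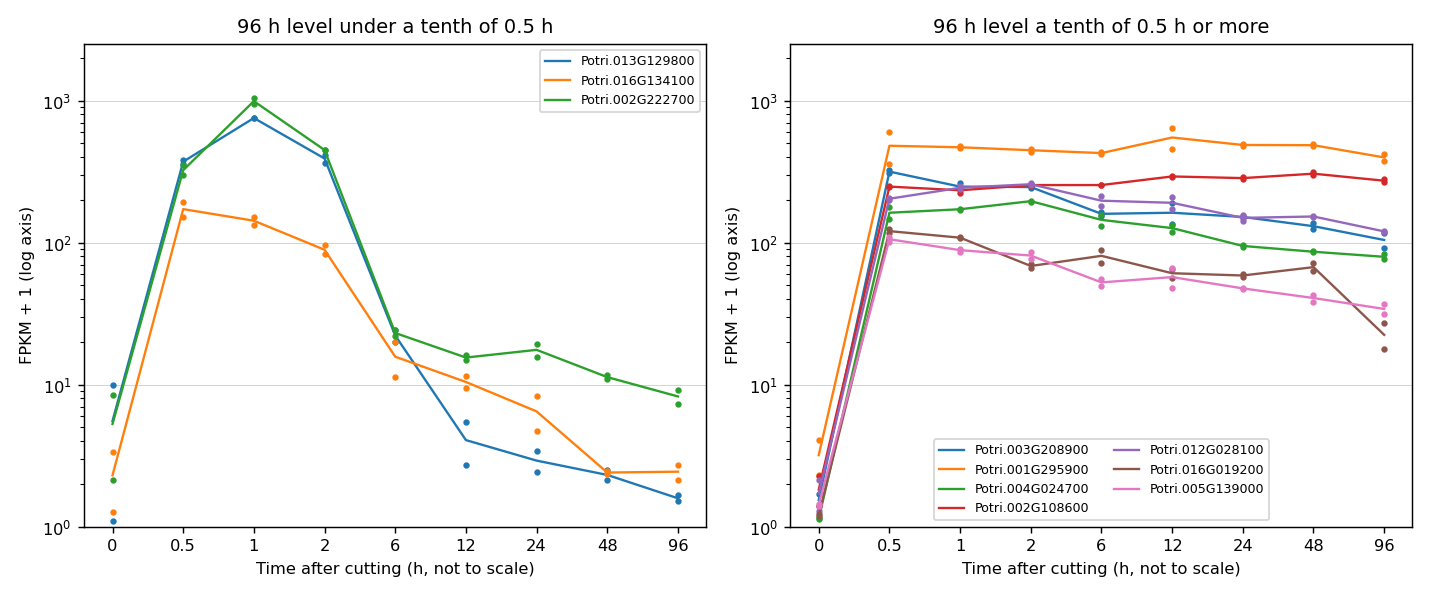
FPKM + 1 (log axis) of the 10 loci with the largest rise against time after cutting (steps not to scale), with 1 point per library and a line through the mean of the 2 libraries. The left panel holds the 3 loci whose 96 h mean was under 10% of the 0.5 h mean, and the right panel the other 7, which stayed above 16 FPKM in every library after 0 h.

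A further 4 loci were named for the largest gain in FPKM among those changed at least 2-fold. Potri.011G118900, with 1 transcript of 1209 bp and whole reads at 0 h, went from 63.2 and 50.3 FPKM to 1576 and 1901 FPKM (log2 fold change 4.92, SE 0.19, limma adjusted p = 4.05e-11). It then stayed between 849 and 2301 FPKM in the libraries from 1 h to 96 h. No locus with a 2-fold or larger change gained more FPKM, and its 0 h values rest on 1674 and 1522 reads.

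Potri.010G072200, with 14 listed transcripts, rose from 217 and 184 FPKM to 1485 and 1724 FPKM (3.00, SE 0.15, limma adjusted p = 7.69e-10). At 1 h it stood at 1469 and 1353 FPKM, then climbed to 9978 and 8381 FPKM at 12 h, and was back at 1870 and 2015 FPKM at 96 h. Potri.006G021600, with 2 transcripts, rose from 61.7 and 158 FPKM to 880 and 839 FPKM (3.11, SE 0.29, limma adjusted p = 8.9e-07). Its fold was 2.44 without replicate 1 of 0 h and 3.78 without replicate 2, and by 96 h it had come down to 61.7 and 45.4 FPKM.

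Potri.011G134700, with 1 transcript of 342 bp, rose from 296 and 219 FPKM to 1120 and 1320 FPKM (2.25, SE 0.15, limma adjusted p = 2.81e-08). Relative to the median of loci of like length the log2 fold change was 0.92. By 96 h it stood at 517 and 463 FPKM, above both 0 h libraries.

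The 6 loci with the largest fall came from levels between 23.0 and 143 FPKM. Potri.011G070800, of 397 bp, stood at 30.6 and 24.6 FPKM at 0 h and at 0.249 and 0.518 FPKM, or 3 and 6 reads, at 0.5 h (log2 fold change -4.37, SE 0.20, limma adjusted p = 3.49e-10). It did not return: no library from 1 h to 96 h was above 0.602 FPKM. Its value in replicate 1 of 0 h was not a whole number of reads, and the locus was above 1 FPKM in the 0 h tables alone. Relative to loci of like length its log2 fold change was -5.69.

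Potri.003G218400, of 1630 bp with whole reads at 0 h, fell from 84.7 and 90.5 FPKM to 3.62 and 4.59 FPKM (-4.12, SE 0.18, limma adjusted p = 2.64e-10). It fell again to 0.222 and 0.752 FPKM at 1 h (-1.80 against 0.5 h, limma adjusted p = 3.70e-06) and was back at 66.6 and 73.8 FPKM at 12 h. Potri.004G172300, of 819 bp, went the same way, from 83.4 and 68.9 FPKM to 3.79 and 3.68 (-4.02, SE 0.27, limma adjusted p = 3.54e-08), with 0.563 and 1.07 at 1 h and 58.9 and 83.3 at 12 h. Both had their lowest mean at 1 h and their highest after 0 h at 12 h.

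Potri.005G113100, of 1426 bp, fell from 32.0 and 23.0 FPKM to 1.16 and 0.938 FPKM (-3.78, SE 0.15, limma adjusted p = 8.50e-11) and reached 20.3 and 26.3 FPKM at 12 h. Potri.006G196900, with 2 transcripts, fell from 122.5 and 143 FPKM to 10.8 and 13.7 (-3.34, SE 0.25, limma adjusted p = 7.08e-08) and then to 1.18 and 1.88 at 1 h (-2.40, limma adjusted p = 4.22e-06). Potri.012G055700, with 3 transcripts, fell from 27.1 and 64.1 FPKM to 3.48 and 2.70 (-3.39, SE 0.35, limma adjusted p = 2.58e-06). Its log2 fold change was -4.00 without replicate 1 of 0 h and -2.79 without replicate 2. After a return to 39.4 and 31.3 FPKM at 6 h it ended at 0.337 and 0.441 FPKM at 96 h.

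The 4 loci with the largest loss in FPKM among those changed at least 2-fold fell by less than 4-fold. Potri.011G079500, of 1412 bp with whole reads at 0 h, went from 2226 and 1737 FPKM to 616 and 860 (-1.43, SE 0.25, limma adjusted p = 0.000256). Potri.005G239300, with 1 transcript of 1309 bp, went from 1430 and 1213 FPKM to 296 and 482 (-1.80, SE 0.28, limma adjusted p = 0.00011). Potri.007G008500, with 5 transcripts, went from 1259 and 925 FPKM to 347 and 421 (-1.50, SE 0.30, limma adjusted p = 0.000939). In each of the 3 both 0.5 h libraries were below both 0 h libraries, which was a condition for naming any fall.

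All 3 fell further by 1 h, Potri.007G008500 the most, to 42.5 and 36.5 FPKM (-3.24, limma adjusted p = 2.24e-06). Potri.011G079500 stood at 375 and 309 FPKM (-1.10, limma adjusted p = 0.00261) and Potri.005G239300 at 183 and 133 FPKM (-1.27, limma adjusted p = 0.00222). Potri.003G222700, with 6 transcripts, went from 1363 and 1159 FPKM to 593 and 636 (-1.03, SE 0.11, limma adjusted p = 2.21e-06), or -0.74 after quantile normalization. No later library brought any of the 4 back to its 0 h level.

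The interval from 0.5 h to 1 h, which shares the 0.5 h libraries, had 13.9% of all 26765 tested loci called higher and 30.3% called lower. Both of its groups come from tables made alike. Side by side, the 117 loci at least 16-fold higher at 0.5 h had medians of 1.96, 74.6, 94.4, 60.9 and 20.5 FPKM from 0 h to 6 h and 4.94 FPKM at 96 h. The 858 loci at least 4-fold higher had medians of 2.90, 32.3, 43.8, 23.6 and 9.71 FPKM from 0 h to 6 h and 5.27 FPKM at 96 h. The 132 loci at least 4-fold lower had medians of 26.1, 3.97, 1.41, 3.16 and 6.21 FPKM from 0 h to 6 h and 9.14 FPKM at 96 h. All 23994 loci together had medians between 6.93 and 9.17 FPKM over the whole course. The sets were chosen for their change in the first 0.5 h, and the extreme of each median came at 1 h.

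**Figure D3:**
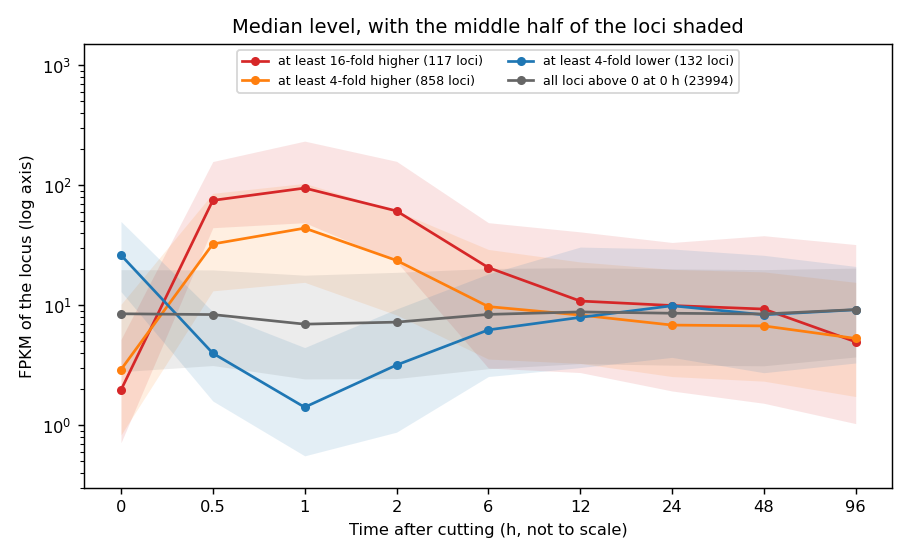
Median FPKM (log axis) of 4 sets of loci against time after cutting (steps not to scale), with the 25th to 75th percentile of the loci shaded; points are medians over loci of the mean of 2 libraries. The 117 and 858 higher loci peak at 1 h, at 94.4 and 43.8 FPKM, the 132 lower loci have their minimum at 1 h, at 1.41 FPKM, and the grey line of all 23994 loci stays between 6.93 and 9.17 FPKM.

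Of the 117 loci at least 16-fold higher, 33 peaked at 0.5 h itself, 52 one step later at 1 h, 17 at 2 h, none at 6 h, and the remaining 15 at 12 h or beyond, by the mean of the 2 libraries. At 0.5 h their levels ran from 20.3 to 1738 FPKM, and 48 of them were at 100 FPKM or more, against none at 0 h. By 6 h, 45 of the 117 were under 10% of their 0.5 h level, and by 96 h, 65 were. At the other end, 26 still held at least 50% at 96 h. The leading transcripts of the loci that fell back had a median length of 1251 bp, and those of the loci that held their level 530 bp. Of the 858 loci at least 4-fold higher, 341 fell to under 10% by 96 h, with a median length of 1431 bp, and 244 held at least 50%, with a median length of 707.5 bp.

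Of the 132 lower loci, 15 had their lowest mean at 0.5 h, 79 had it one step later and 19 in the step after that, at 2 h. At 1 h, 95 of them were under 10% of their 0 h level, against 29 at 0.5 h. A level of at least 50% of that of 0 h was found again in 1 locus at 1 h, in 23 loci at 6 h, in 51 at 24 h and in 38 at 96 h. At each of these times more of the 132 loci were under 50% of the 0 h level than above it, not necessarily the same loci.

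The length of the leading transcript, the one with the highest mean level over the libraries after 0 h, went with the change. Length was not part of the rule that kept loci. In the 50 loci of up to 300 bp the median log2 fold change was 2.06 and 74% were called higher, and in the 128 loci from 301 to 400 bp it was 1.33 and 72.7%. The median was 0.64 in the 355 loci from 501 to 600 bp, 0.02 in the 1876 loci from 801 to 1000 bp and -0.16 in the 2724 loci over 3000 bp, of which 14.1% were higher and 29.5% lower. From 0.5 h to 1 h the medians of the same length classes lay between -0.22 and -0.08, with no such slope. The part of transcript length in the count of higher loci was not tested.

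**Figure D4:**
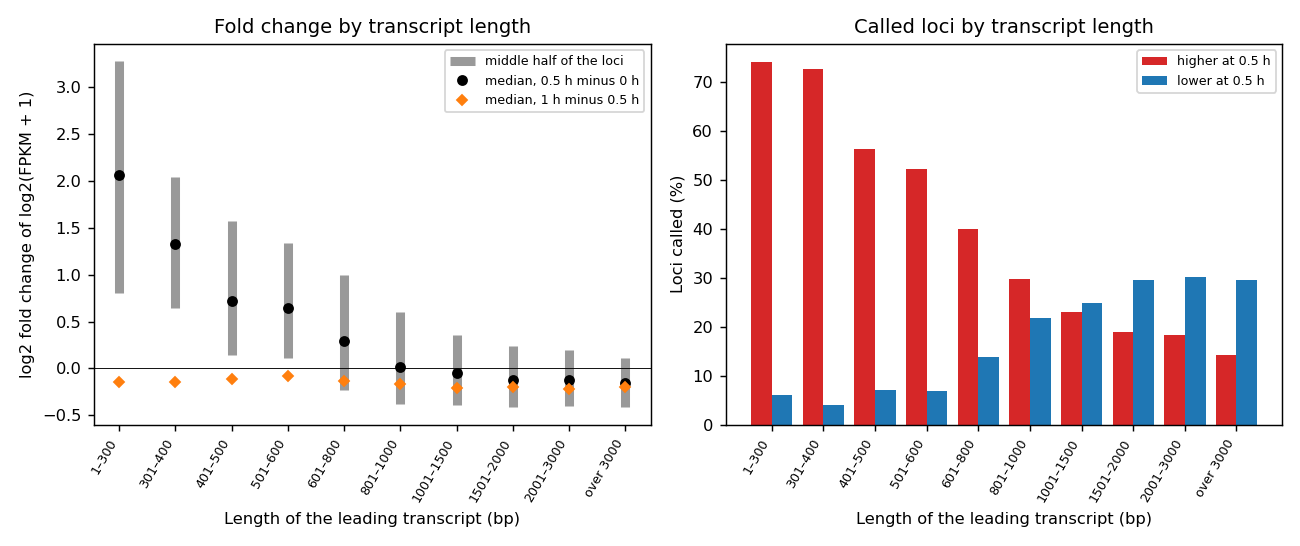
Left, median log2 fold change of log2(FPKM + 1) by length of the leading transcript in bp, with the 25th to 75th percentile as grey bars for 0.5 h minus 0 h, and orange diamonds for the median of 1 h minus 0.5 h. Right, percent of loci called higher and lower at 0.5 h in the same length classes; higher calls go from 74% in the shortest class to 14.1% in the longest, lower calls from 6% to 29.5%.

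Loci changed most were shorter than the rest. The median length was 1686 bp over all loci with a length, 1201 bp over those at least 4-fold higher, 946 bp over those at least 16-fold higher and 1380 bp over those at least 4-fold lower. Transcript number went with the change as well. Loci with 1 listed transcript made up 49.2% of the 23994, 76.3% of the 858, 87.2% of the 117 and 69.7% of the 132. Among the 11815 loci with 1 transcript 3257 were higher and 2845 lower, and among the 12179 with several 2106 were higher and 3488 lower.

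A subset free of fractional 0 h values and of short transcripts was formed after these values were seen. It holds 7300 loci with 1 listed transcript of at least 1000 bp and whole reads in both 0 h libraries. Of them 1519 were higher and 2063 lower, 20.8% and 28.3%, against 22.4% and 26.4% of all 23994 loci. The restrictions moved these shares in opposite directions. With 1 transcript and whole reads they were 26.2% and 25.0%, and with the limit of 1000 bp alone 19.3% and 28.3%. In the subset, at least 4-fold changes were seen in 256 higher and 60 lower loci, and at least 16-fold changes in 39 and 1. By 96 h, 34 of these 39 loci had fallen to under 10% of their 0.5 h level, 4 stood between 10% and 50%, and 1, Potri.011G118900, at 50% or more.

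Potri.011G118900, Potri.003G218400, Potri.005G113100 and Potri.011G079500, described above, belong to this subset. The 8 largest rises and 6 largest falls among its other loci were named after their values were seen and are given as a description. Potri.006G202600, of 1685 bp, went from 0.433 and 3.79 FPKM to 127 and 105 FPKM at 0.5 h, to 192 and 195 at 1 h and to 0.503 and 0.157 at 96 h. Potri.012G060900, of 1266 bp, went from 1.15 and 5.93 FPKM to 165 and 136 FPKM, to 439 and 500 at 1 h and to 522 and 533 at 2 h, and stood at 42.9 and 28.6 at 96 h. Potri.002G012800, of 1599 bp, went from 1.08 and 5.80 FPKM to 99.8 and 99.1 FPKM, to 303 and 257 at 1 h, and was at 1.38 and 1.44 at 6 h. The further rise to 1 h was called for Potri.012G060900 (1.64, limma adjusted p = 0.00327) and Potri.002G012800 (1.48, limma adjusted p = 0.00359) and not for Potri.006G202600 (0.74, limma adjusted p = 0.149). All 3 had replicate 2 of 0 h above replicate 1.

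Potri.009G010200, of 1045 bp, had 0.873 and 0.918 FPKM in the 2 libraries of 0 h, the closest pair of the 8, and 62.1 and 55.3 FPKM at 0.5 h, a log2 fold change of 4.97. It reached 153 and 137 FPKM at 1 h and was at 4.93 and 3.39 at 96 h. Potri.006G120600, of 1586 bp, went from 0.115 and 1.01 FPKM to 54.2 and 48.1 FPKM, had 53.3 and 51.0 FPKM at 2 h, within the range of the 0.5 h libraries, and ended at 0.288 and 0.0834 FPKM.

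In the other three of the 8, the level at 2 h was under 25% of that at 0.5 h. Potri.008G197800, of 1026 bp, went from 2.05 and 3.82 FPKM to 125 and 120 FPKM, and was at 15.5 and 13.7 at 2 h. Potri.001G323500, of 1497 bp, went from 0.122 and 2.24 FPKM to 54.7 and 51.1 FPKM, and was at 10.6 and 13.1 at 2 h and 0.410 and 0.175 at 6 h. Potri.005G181800, of 1897 bp, stood at 0.337 FPKM in replicate 1 and at 13.6 FPKM in replicate 2 of 0 h, at 135 and 106 FPKM at 0.5 h and at 19.7 and 19.3 at 2 h. Its log2 fold change was 4.77, with 3.04 without replicate 1 of 0 h and 6.49 without replicate 2, the widest such range among all 38 named loci.

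Of the 8, the fold of 4 others moved more than 1.5-fold with the 0 h library left out. Without replicate 1 and without replicate 2 of 0 h, the log2 fold change was 4.6 and 6.34 for Potri.006G202600 and 4.44 and 6.13 for Potri.012G060900. It was 4.05 and 5.58 for Potri.001G323500 and 3.89 and 5.59 for Potri.002G012800. All stayed above 3 on the log2 scale, and in every case the lower value came with replicate 2 of 0 h alone as the reference.

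The 6 further falls of the subset came from 0 h levels between 11.9 and 111 FPKM. Potri.002G020700, of 1025 bp, went from 111 and 90.6 FPKM to 12.3 and 10.1 FPKM at 0.5 h and did not exceed 28.9 FPKM in any library up to 96 h. Potri.002G002000, of 1590 bp, went from 40.1 and 33.7 FPKM to 3.13 and 3.51, reached its lowest values, 0.932 and 0.991 FPKM, at 1 h, and was at 49.5 and 43.7 at 24 h. Potri.013G060800, of 1264 bp, stood at 81.2 and 30.5 FPKM at 0 h and at 4.85 and 5.53 at 0.5 h, a log2 fold change of -3.04, with -2.35 without replicate 1 of 0 h and -3.73 without replicate 2. Of these 3, Potri.002G002000 is the one that regained the level of both 0 h libraries.

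Potri.004G003900, of 1603 bp, went from 22.9 and 14.3 FPKM to 1.17 and 1.20 FPKM, and Potri.015G070900, of 1241 bp, from 25.7 and 15.8 FPKM to 1.38 and 1.52. Both remained under 5 FPKM in every later library. Potri.003G116700, of 1675 bp, went from 16.0 and 11.9 FPKM to 1.3 and 0.573, to 0.216 and 0.167 at 1 h, and back to 13.8 and 13.4 at 96 h. These 6 falls thus include loci that stayed down for the whole course and loci that came back.

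**Figure D5:**
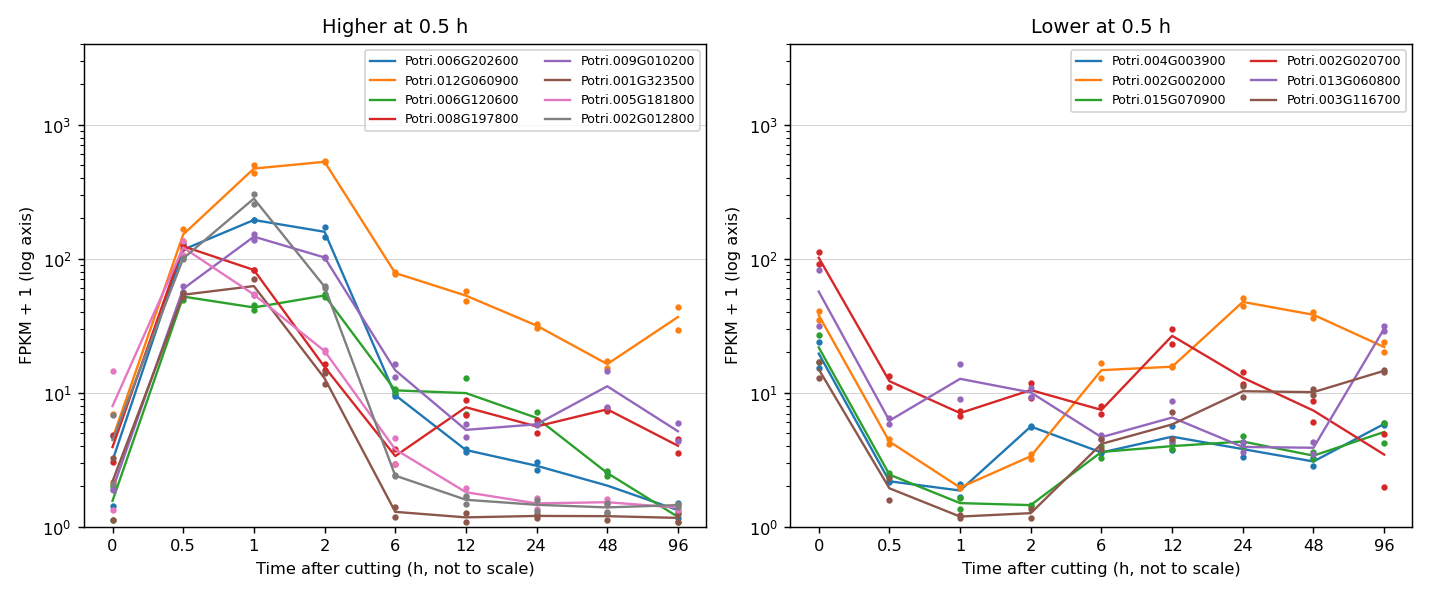
FPKM + 1 (log axis) against time after cutting (steps not to scale) of the 8 largest rises and the 6 largest falls not already named among loci with 1 listed transcript of at least 1000 bp and whole reads at 0 h, with 1 point per library and a line through the mean. All 8 rises are below 80 FPKM by 6 h, and of the 6 falls Potri.002G002000 at 24 h and Potri.003G116700 at 96 h are within or above the range of their 0 h libraries.

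The 0 h libraries differed from each other in the loci that rose. Over all 23994 loci replicate 2 of 0 h was above replicate 1 in 46.5%, with a median log2 difference of -0.02. Among the 858 loci at least 4-fold higher at 0.5 h it was above in 652, 76.0%, with a median of 0.57, and among the 117 at least 16-fold higher in 91, 77.8%, with a median of 0.92. In the subset with 1 long transcript, replicate 2 was the higher one in 227 of 256 and in 37 of 39 loci, with a median of 1.62 for the 39. Among the 132 loci at least 4-fold lower at 0.5 h it was above in 29, 22.0%, with a median of -0.31. Replicate 2 of 0 h thus stood nearer to the 0.5 h libraries than replicate 1 in the loci that moved most, in both directions.

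The 2 libraries of 0.5 h differed less, with median differences of -0.04 in the 117 loci and -0.06 in the 858, against -0.01 over all 23994. In the subset with 1 long transcript the medians were -0.15 for the 256 loci and -0.12 for the 39. For the 132 lower loci the median was 0.09. The cause of the difference between the 0 h libraries was not tested. Without replicate 1 of 0 h, 68 loci were at least 16-fold higher, and without replicate 2, 197 were. The counts of loci at least 4-fold higher were 718 and 1017 in the same order.

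The rule that a locus be above 0 in both 0 h libraries removed loci by their 0 h level, so their low 0 h values follow from it. The 100 retained loci with the lowest 0 h mean had 0 h means from 0.00149 to 0.0974 FPKM and a median of 0.348 FPKM at 0.5 h. Of the removed loci, 982 were listed at 0 in 1 of the 0 h libraries, with a median 0 h mean of 0.104 FPKM. At 0.5 h these had a median of 0.863 FPKM and a maximum of 277 FPKM. The other 1789 were listed at 0 in both and had a median of 0.866 FPKM at 0.5 h, with a maximum of 484 FPKM. Over all retained loci the medians were 8.46 FPKM at 0 h and 8.33 FPKM at 0.5 h. By their medians the loci on both sides of the rule were of low level, but the removed ones included strong rises. With loci at 0 at 0 h included, 6961 loci were higher and 227 at least 16-fold higher, against 5363 and 117. Loci at 0 in both 0 h libraries had a median length of 471 bp, against 1686 bp over the retained loci with a length.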

How the data were processed

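The authors deposited 1 table per library with the FPKM of 65535 transcripts. Only the 0 h tables are headed FPKM, per the file headers, and for the 16 others the unit was taken from the values. The submitters' processing notes list Bowtie2 2.2.3 and HISAT2 2.1.0 with no role. The genome build, annotation and quantification tool were not given in the sources used here. No annotation was used here, so 27 gene lists, markers and sequences were not analysed. FPKM values were summed per locus, loci with at least 1 FPKM in at least 2 libraries were tested as log2(FPKM + 1) with limma 3.58.1 in R 4.3.3 (trend and robust estimation, 1 mean per time point over all 18 libraries), and p-values were adjusted over all 26765 loci. The procedure was tested on simulated data. All simulated libraries had the same spread, so that test does not bear on how the 0 h tables differ from the later ones. Read totals were searched in the values from 0.015 to 0.07 FPKM, and lengths of 60 to 17000 bp were found for all 60197 transcripts above 0 in at least 6 later libraries. Loci were named by rule: called, groups without overlap, and the 10 largest rises and 6 largest falls in log2 fold, and the 4 largest of each in FPKM among those changed at least 2-fold. A further 8 and 6 were added as stated. Members and lists were chosen with earlier results of these data known.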

Additional observations from a re-analysis of the deposited data

How the results depend on the processing

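All 632 values of the 38 named loci under the alternatives that could be run kept direction and call. The named loci were chosen from these same data as called and most changed, so this stability is no independent check. For 25 loci at least 1000 bp long, 27 with whole reads and 18 with both, the value only repeats the main fit. Higher loci, 5363, and lower loci, 6333, became 3224 and 2797 among loci with 1 listed transcript tested alone, 10625 and 13545 with transcripts as the unit, and 2463 and 1196 with a 2-fold minimum. With only the 4 libraries fitted, 4169 loci were higher and 3995 lower, which turned the more frequent direction. Settings chosen after seeing the data gave 2538 and 2418 among loci with 1 transcript and whole reads at 0 h, and 1519 and 2063 with 1000 bp or more in addition. Leaving out 1 library gave 4558 to 4792 higher, 4709 to 5622 lower, 718 to 1017 at least 4-fold higher, 102 to 195 at least 4-fold lower and 68 to 197 at least 16-fold higher. The counts at least 4-fold higher, at least 4-fold lower and at least 16-fold higher (858, 132, 117) were 1490, 307 and 264 with a pseudocount of 0.1, 2468, 762 and 351 with transcripts as the unit, and 1622, 369 and 318 with limma-voom on the recovered reads. With loci at 0 at 0 h included, 1357 were at least 4-fold and 227 at least 16-fold higher. With a length of at least 1000 bp these were 501 and 56. Loci with 1 transcript and whole reads gave 528 at least 4-fold higher and 82 lower, and with 1000 bp in addition 256, 60 and 39 at least 16-fold higher. Restricted sets count fewer loci by construction, and the cause of the other moves was not tested. Relative to the median of like length, 53.9% of calls were higher, against 45.9%. The replicate block gave 5313 higher and 6247 lower loci. Deviations of same-numbered 0 h and 0.5 h libraries had a correlation of -0.148 over 23994 loci, and crossed pairing gave 5310 and 6225. A pseudocount of 0.1 raised the log2 fold changes of the 10 largest rises by 0.48 to 2.24, which follows from the smaller value added to low 0 h levels.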

Other observations

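Of the 1789 loci left out because both 0 h libraries list them at 0, 63 stood at 20 FPKM or more at 0.5 h. Of these, 41 still had at least 50% of that level at 96 h, and 6 had under 10%. Potri.002G131600, of 225 bp, had 120 and 131 FPKM at 0.5 h, still 119 and 99.5 at 1 h, and only 4.39 and 5.10 by 6 h. Potri.008G197900, of 294 bp, was at 65.4 and 56.7 FPKM at 0.5 h and at 0.695 and 1.34 at 6 h. Potri.005G215700, of 598 bp, had 25.3 and 18.9 FPKM at 0.5 h and 112 and 117 by 1 h, and ended with 1.75 and 1.05. Of the 3, Potri.005G215700 had higher values at 1 h than at 0.5 h, between tables made alike, and the other two were highest at 0.5 h and lower from there. Their 0 h level is known only as listed at 0.

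Among the 858 loci at least 4-fold higher at 0.5 h, 128, or 14.9%, stood next to another of the set in the order of identifiers, in 68 neighbouring pairs, and the longest run was 5 loci from Potri.014G055300 to Potri.014G055700. The share that numbers alone would give was not computed. No positions or sequences were used, so neighbours that share reads as near-identical copies were not told apart from neighbours measured separately.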
